A study of Mus musculus with 25 samples.

Results

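Proteasome genes were followed across 2-cell embryos and blastocysts of the mouse strain BDF1. Members were the loci whose symbol begins with Psma, Psmb, Psmc, Psmd, Psme or Psmg followed by a digit, 49 of 24708 loci, each symbol at 1 locus. By name, 19 belong to the core, 21 to the cap, 5 to the activators and 4 to the chaperones. The rule used names only and no measured value. RNA tables of 11 of the 25 samples of the series were used. At embryonic day 1.5 the series has 2-cell embryos in groups named WT, sIVF and IVF, with 2 libraries in each. Blastocysts of embryonic day 4.0 carry the label Control in 2 libraries and Fzr1-OE in 3. The labels give these names as genotypes and do not say what sIVF stands for, how Fzr1 was overexpressed, how many embryos made a library or whether replicates were separate collections. The p-values below therefore measure the spread between these libraries, which may be technical.

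The proteasome is the barrel-shaped protease that destroys ubiquitin-tagged proteins. Alpha subunits (Psma) form the gate rings of its core, and beta subunits (Psmb) form the inner rings, where Psmb5, Psmb6 and Psmb7 cut peptide bonds. The cap recognises, unfolds and feeds in tagged proteins by means of ATPases (Psmc) and non-ATPase subunits (Psmd), activators (Psme) open the gate without the cap, and Psmg proteins help to assemble the core. In the early embryo the ubiquitin-proteasome system clears maternal proteins. Fzr1 encodes a substrate adaptor of the anaphase-promoting complex, a ubiquitin ligase that marks cell cycle proteins for the proteasome.

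Within these names, Psmb8, Psmb9 and Psmb10 replace the catalytic subunits in the immunoproteasome, Psma8 is the alpha subunit of germ cells and Psmb11 the beta subunit of the thymus. Psmd5, Psmd9 and Psmd10 are cap assembly chaperones. Psmc3ip is a meiotic recombination factor that shares only a name with the cap, and Psme2b is a near copy of Psme2, so reads of that pair could be split by the counting. That left 14 constitutive core subunits and 17 cap subunits. The loci of Psma3, Psma4, Psmb5, Psmc3ip, Psmd1, Psme1 and Psme2b overlap another gene, and since the use of strand in counting is not stated, shared reads cannot be told apart there.

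The deposited confidence bounds implied 4742698 to 6377606 fragments for a library of 2-cell embryos and 9324167 to 10483442 for one of blastocysts. Of these, members took 50115 to 75686 at the 2-cell stage and 159839 to 206495 in blastocysts. These fragment numbers are rough, because the bounds of genes such as Psma7 were wider than counting error alone would give. The targeted gene did not separate the blastocyst labels. Fzr1 stood at 12.7, 15.5 and 17.1 FPKM (fragments scaled for transcript length and library size) under the Fzr1-OE label and 16.5 and 16.5 FPKM in Control, so every direction drawn between them rests on the label. In both blastocyst groups each of 9 trophectoderm and 7 epiblast markers was above 0 in some library. Markers of the 2-cell stage summed to 34.6 to 93.7 FPKM in the libraries of that stage. Sperm markers were listed at 0 in all WT and sIVF libraries and summed to at most 3.25 FPKM in an IVF library. In blastocysts they summed to 4.04 to 4.58 FPKM in Control and 2.3 to 3.61 FPKM under the Fzr1-OE label. Cumulus and granulosa markers summed to at most 3.92 FPKM in a WT library and 3.48 FPKM in an IVF library.

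**Figure D1:**
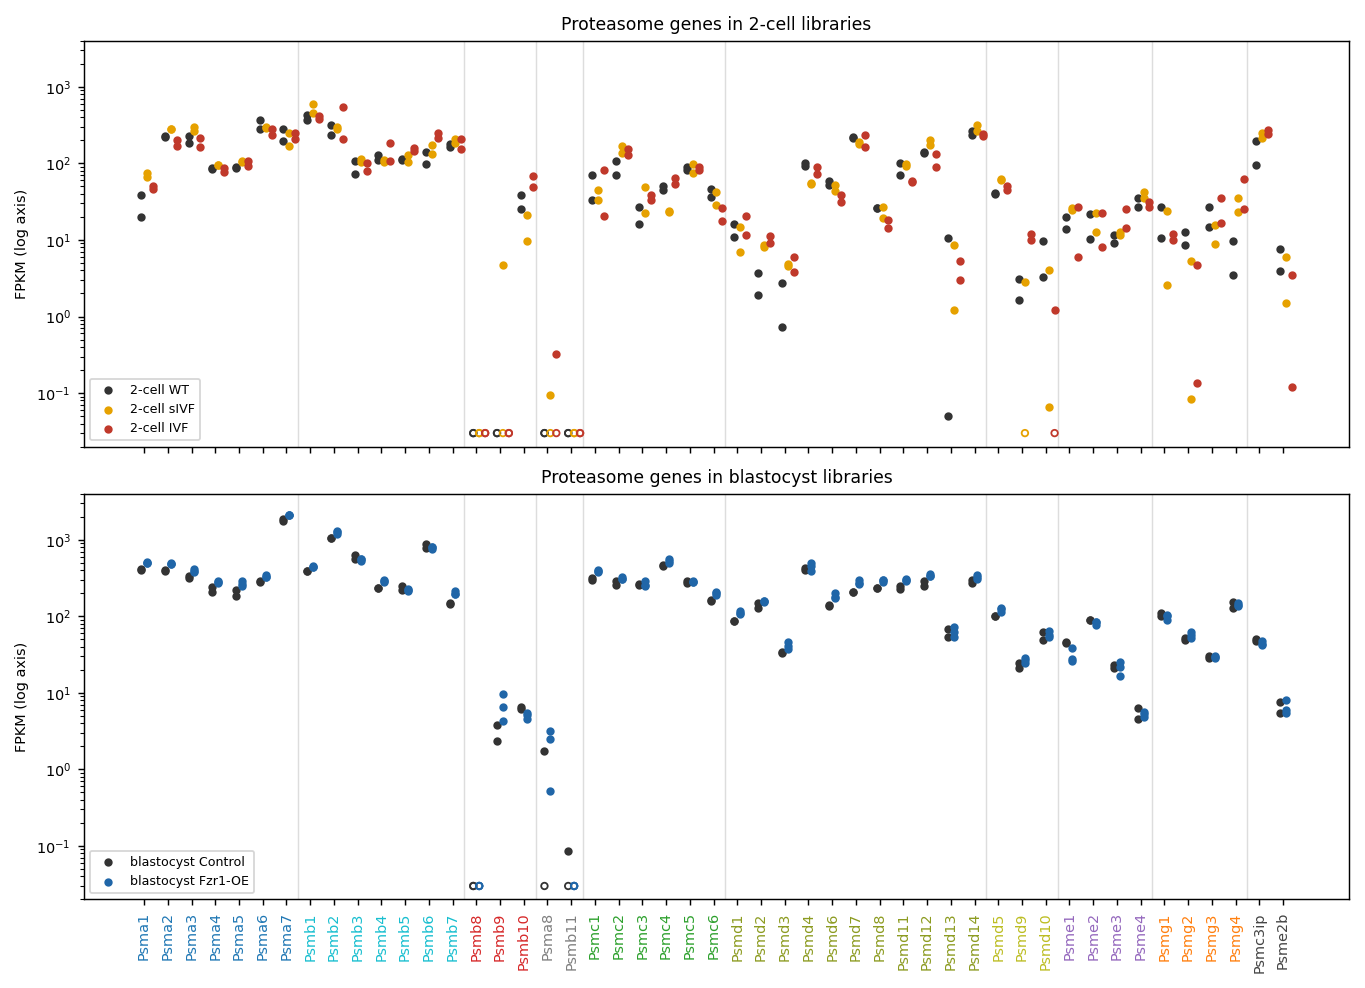
FPKM on a log axis for the 49 proteasome genes in the 6 libraries of 2-cell embryos (upper panel) and the 5 blastocyst libraries (lower panel). Each dot is a library, and open circles are a value of 0, or of 0.0126 for Psmb11 in Fzr1-OE replicate 3. Gene names are coloured by role, from alpha subunits at the left to chaperones and the pair of look-alike names at the right; cap genes (Psmc and Psmd) spread over a wider range in 2-cell libraries, from under 5 FPKM up to 314 FPKM for Psmd14, and overlap the core genes at both stages.

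FPKM is scaled for length, so levels can be set beside each other between genes. In 2-cell libraries the median constitutive core subunit stood at 145 to 178 FPKM and the median cap subunit at 38.6 to 56.5 FPKM. In blastocyst libraries these medians were 353 to 427 and 236 to 294 FPKM. The cap median was thus 0.218 to 0.344 of the core median at the 2-cell stage and 0.667 to 0.712 of it in blastocysts, and these ranges did not overlap. The spread among cap genes, as a coefficient of variation, was 91.3% to 111% in 2-cell libraries and 47.4% to 51.5% in blastocysts. Among core genes the direction was opposite, from 55.2% to 66.5% to between 88.6% and 90.3%.

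The lowest core gene was Psma1 in all 6 libraries of 2-cell embryos, at 20.1 to 75.1 FPKM, and Psmb7 in all 5 blastocyst libraries, at 145 to 214 FPKM. The highest was Psmb1 in 5 of the 2-cell libraries and Psmb2 in IVF replicate 1. In every blastocyst library it was Psma7, between 1757 and 2118 FPKM. Members made up 1.32% to 1.43% of all FPKM in a 2-cell library and 2.23% to 2.61% in a blastocyst library. The order of the 31 constitutive core and cap genes by mean level had a Spearman rho of 0.535 between WT 2-cell embryos and Control blastocysts, and of 0.964 between WT and IVF. These coefficients describe genes that share libraries and are not tests.

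The inducible and tissue-specific subunits were low. Psmb8 was listed at 0 in all 11 libraries. Psmb9 was listed at 0 in every 2-cell library except sIVF replicate 1, at 4.77 FPKM, and reached 2.33 to 9.71 FPKM in blastocysts. Psma8 did not exceed 0.322 FPKM in 2-cell libraries or 3.19 FPKM in blastocysts, and Psmb11 did not exceed 0.0847 FPKM in any library. Psmb10, the inducible counterpart of Psmb7, differed from these others in being clearly present in 2-cell embryos.

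Psmb10 (chromosome 8 from 108459628 to 108462292, mm9) stood at 25.6 and 38.4 FPKM for WT, 9.65 and 21.4 for sIVF and 48.7 and 68.3 for IVF. Its share of the sum of Psmb7 and Psmb10 was 13.6% and 17.8% in WT, 5.0% and 9.3% in sIVF and 19.0% and 31.0% in IVF. In blastocysts that share was 2.11% to 4.34%. The 3 groups of 2-cell embryos did not overlap in this share, with sIVF lowest and IVF highest, but the share was not tested. Psmb10 itself did not pass for IVF against WT (limma adjusted p = 0.476) or sIVF against WT (adjusted p = 0.674). Of all loci, 22.8% were higher without overlap in IVF than in WT, and 15.3% were lower in sIVF than in WT.

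Set against Control, 13 of the 47 members measured in blastocysts (mean of at least 1 FPKM) rose in the libraries labelled Fzr1-OE and 0 fell. Passing meant a p under 0.05 in limma on log2(FPKM + 1) after Benjamini-Hochberg adjustment over all 9438 loci tested. Of all loci, 2.30% rose and 1.92% fell by the same rule. The log2 fold change was above 0 for 36 members (50.7% of all loci). Groups did not overlap for 26 higher members (19.0% of all loci) and 3 lower ones (18.4%). At an unadjusted p under 0.05 stood 25 members higher and 1 lower (10.4% and 9.36% of all loci). The median log2 fold change of the members was 0.20, and of all loci 0.005.

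All 7 alpha subunits were higher in every library labelled Fzr1-OE than in either Control library. Their median change was 0.28 on the log2 scale, and 4 of them passed. Psma1 stood at 505, 491 and 499 FPKM under the Fzr1-OE label and 416 and 405 FPKM in Control. Psma2 stood at 481, 499 and 475 FPKM against 399 and 391 FPKM. These alpha subunits rose by log2 fold changes of 0.28 (SE 0.06, limma adjusted p = 0.0295) and 0.30 (SE 0.06, adjusted p = 0.0261). Psma7, the most abundant member, stood at 2118, 2114 and 2100 FPKM against 1882 and 1757 FPKM. It rose by 0.21 (SE 0.05, adjusted p = 0.0406). The fourth, Psma5, averaged 267 ± 23.3 FPKM (SD, n = 3) under the Fzr1-OE label against 200.4 ± 24.4 FPKM (SD, n = 2) and rose by 0.41 (limma adjusted p = 0.0491). Psma3, Psma4 and Psma6 had log2 fold changes of 0.28, 0.31 and 0.22 and did not pass, with limma adjusted p of 0.0548, 0.0626 and 0.102.

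The beta subunits were divided, with 2 of 7 passing, 4 above 0 and 3 below 0. Psmb7 (chromosome 2 from 38443566 to 38499426, mm9), the catalytic subunit with trypsin-like activity, stood at 214, 198 and 196 FPKM under the Fzr1-OE label and 145 and 151 FPKM in Control. The groups were well apart, and a rise of 0.45 (SE 0.08) gave the smallest p among the members (limma adjusted p = 0.0122). Psmb4, a non-catalytic subunit, stood at 283, 302 and 293 FPKM against 233 and 232 FPKM and rose by 0.33 (SE 0.07, adjusted p = 0.0261).

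The other catalytic pair did not pass. Psmb5, the chymotrypsin-like subunit, stood at 218, 212 and 228 FPKM under the Fzr1-OE label and 251 and 219 FPKM in Control. Psmb6, the caspase-like subunit, stood at 764, 803 and 812 FPKM against 875 and 771 FPKM. Both genes overlapped between the groups, with log2 fold changes of -0.10 (95% interval -0.28 to 0.08) and -0.05 (-0.20 to 0.10). Psmb3 was at -0.13 and also overlapped. Whether Psmb7 differed in response from Psmb5 or Psmb6 was not tested.

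Of the 17 cap subunits all had a log2 fold change above 0, with a median of 0.29, and 7 passed, 2 of them ATPases. Psmc1 stood at 384, 402 and 394 FPKM under the Fzr1-OE label and 301 and 315 FPKM in Control (log2 fold change 0.35, SE 0.06, limma adjusted p = 0.0157). Psmc6 stood at 191, 199 and 207 FPKM against 161 and 160 FPKM (0.31, SE 0.07, adjusted p = 0.0478). Neither ATPase overlapped between the groups. The other ATPases ran from 0.03 for Psmc3 to 0.20 for Psmc2.

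Psmd7 (chromosome 8 from 110104280 to 110112382, mm9), which pairs with the deubiquitinase Psmd14 in the cap lid, stood at 265, 274 and 300 FPKM under the Fzr1-OE label and 208 and 206 FPKM in Control. It rose by 0.43 (SE 0.07, limma adjusted p = 0.0146). Psmd14 itself stood at 305, 323 and 346 FPKM against 294 and 272 FPKM, a log2 fold change of 0.20 that did not pass (limma adjusted p = 0.184). Other lid subunits that rose were Psmd11 (290, 299 and 310 against 245 and 231 FPKM), Psmd12 (352, 334 and 339 against 292 and 247 FPKM), Psmd6 (176, 200 and 172 against 138 and 142 FPKM) and Psmd8 (302, 280 and 294 against 236 and 236 FPKM). Their log2 fold changes were 0.33, 0.34, 0.38 and 0.31, none of the 4 overlapped between groups, and limma adjusted p ran from 0.0296 for Psmd11 to 0.0463 for Psmd12. The large scaffold genes Psmd1 (0.35, adjusted p = 0.0544) and Psmd2 (0.18, adjusted p = 0.288) and the ubiquitin receptor gene Psmd4 (0.10, adjusted p = 0.583) did not pass in limma.

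Activators and chaperones had 0 of 11 members passing in limma, 1 activator and 1 chaperone of them at an unadjusted p under 0.05. All 4 activators were below 0, with a median of -0.10. Psme1, a subunit of the interferon-inducible activator ring, stood at 27.5, 26.3 and 38.9 FPKM under the Fzr1-OE label and 44.4 and 46.3 FPKM in Control. These groups did not overlap, but the log2 fold change of -0.56 (SE 0.16) did not pass (limma adjusted p = 0.0972). Its partner Psme2 stood at 85.4, 76.5 and 83.1 FPKM against 89.3 and 89.7 FPKM (-0.13, limma adjusted p = 0.465). Psme3, the nuclear activator, and Psme4, the activator linked to histone degradation, had log2 fold changes of -0.07 and -0.03 and overlapped.

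The core chaperones Psmg1 to Psmg4 ran from -0.09 to 0.17, all overlapping between groups. Cap chaperones were at 0.26 for Psmd5, 0.21 for Psmd9 and 0.08 for Psmd10. Psmb9 had the largest value of any member, 0.92 (SE 0.31, limma adjusted p = 0.143), at 4.32, 9.71 and 6.55 FPKM against 3.81 and 2.33 FPKM. Psmb10 stood at 4.60, 5.52 and 5.07 FPKM against 6.58 and 6.17 FPKM, lower without overlap but not passing (-0.28, limma adjusted p = 0.478).

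**Figure D2:**
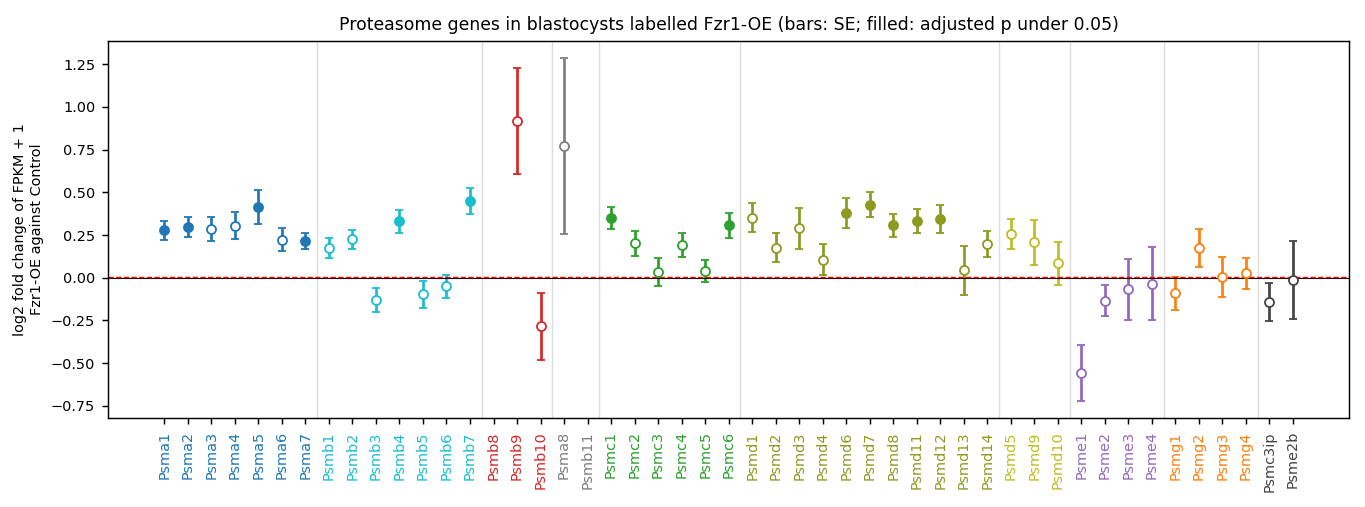
Log2 fold change of FPKM + 1 in blastocyst libraries labelled Fzr1-OE against Control for each proteasome gene, with bars of 1 SE and filled symbols for an adjusted p under 0.05 in limma. Constitutive alpha and cap subunits lie above 0, 13 filled symbols are all above 0, and the 4 activators lie below 0; the dashed line is the median of all loci, 0.005.

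**Figure D3:**
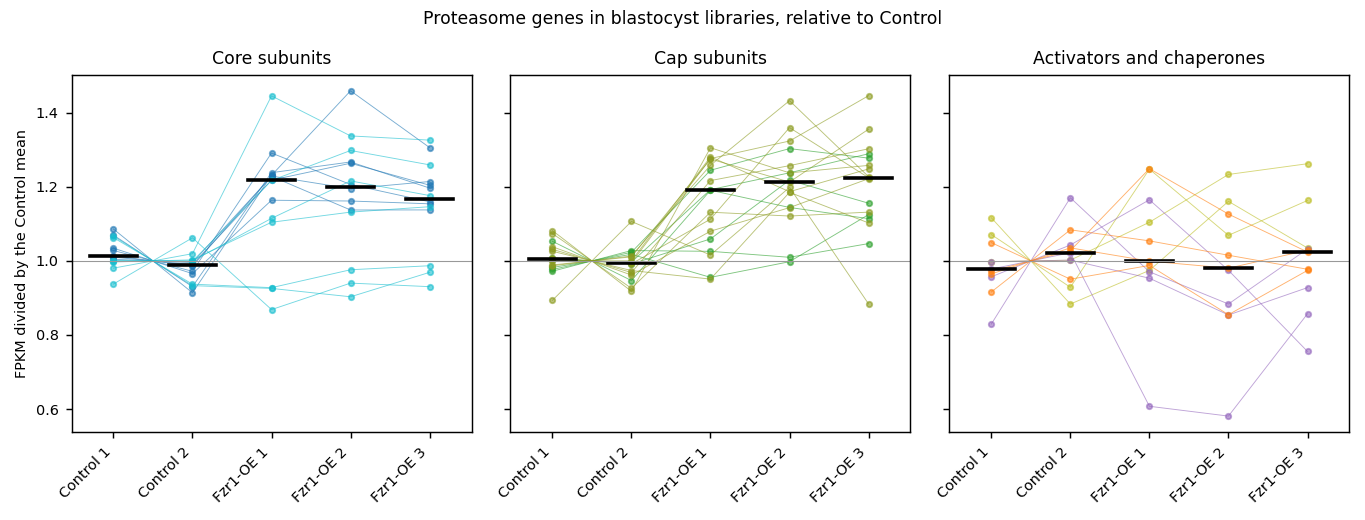
FPKM of each gene divided by its mean over the 2 Control libraries, by library. Panels hold the constitutive core subunits, the cap subunits, and the activators with the core and cap chaperones. Thin lines join the values of 1 gene, and replicates have no order. Black bars are the median gene in each library and stand above 1 in the 3 libraries labelled Fzr1-OE for core and cap genes.

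Core subunits summed to 8013, 8211 and 8092 FPKM under the Fzr1-OE label and to 7294 and 7010 FPKM in Control. Cap subunits summed to 4374, 4598 and 4610 FPKM against 3903 and 3797 FPKM. Each library labelled Fzr1-OE was above each Control library in both sums. Trophectoderm markers moved between the same groups, summing to 3553 to 3618 FPKM under the Fzr1-OE label and 5612 to 5651 FPKM in Control, with 5 of 9 lower. Markers of the 2-cell stage summed to 10.7 to 14.7 FPKM against 0, and the 3 that were measured were all called higher (median log2 fold change 1.99), the other 3 being listed at 0 in every library labelled Fzr1-OE. Of 4 measured primitive endoderm markers 1 was called higher. Epiblast markers summed to 193 to 225 FPKM against 199 to 210 FPKM, with 0 of 7 passing in limma. Fewer cells of a type and less RNA per cell cannot be told apart in bulk samples, and the part of cell makeup in the proteasome values was not tested.

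No member reached a 1.5-fold change together with an adjusted p under 0.05. The 13 calls became 2 without Fzr1-OE replicate 2 (Psmb7 and Psmd7), Psmb7 higher and Psme1 lower without Fzr1-OE replicate 3, Psmd12 alone without Control replicate 1 and 0 without Control replicate 2, the lone library of a group being taken to vary as the rest do. With Fzr1-OE replicate 1 left out 11 were called. The calls also became 0 once low values were not filtered and once limma had no intensity trend, while 36 members stayed above 0 under either.

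Promoters are shown because 7 cap genes passed between the blastocyst groups. Whether these genes share a control was not tested. RefSeq promoter windows (GRCm38.p6) were matched for 41 of the 49 members. The 250 bases before the start were searched on both strands for the antioxidant response element TGACNNNGC, to which Nfe2l1 and Nfe2l2 bind in known proteasome promoters, for the CCAAT box and for the ETS motif CCGGAAG. None of these strings contains another. The ETS string was in 14 of 44 member windows (31.8%) and in 6.91% of all 32851 windows. The antioxidant response element was in 11.4% of member windows and 10.2% of all, and CCAAT in 34.1% and 33.8%. Among the 11 genes with a window that rose in blastocysts, 5 held the ETS string, 4 CCAAT and 2 the antioxidant response element. Of all 41 matched members, 13 held the ETS string, 15 CCAAT and 5 the antioxidant response element. Psmb7 and Psmd7, which also rose, had no matched window. Whether risen members differed from the others in these strings was not tested.

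The 5 risen genes with the ETS string are given below with the 120 bases before their start, 5′ to 3′ on the gene's strand, ETS strings in capitals (CTTCCGG where the match is on the other strand). They are Psmc1 (chr12:100110082-100110201, plus strand), Psmd11 (chr11:80428495-80428614, plus), Psmd12 (chr11:107479408-107479527, plus), Psmd6 (chr14:14120946-14121065, minus) and Psmc6 (chr14:45329704-45329823, plus), all GRCm38.p6.
Psmc1: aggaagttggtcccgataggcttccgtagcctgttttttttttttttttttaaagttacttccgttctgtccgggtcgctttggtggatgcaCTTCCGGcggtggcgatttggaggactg
Psmd11: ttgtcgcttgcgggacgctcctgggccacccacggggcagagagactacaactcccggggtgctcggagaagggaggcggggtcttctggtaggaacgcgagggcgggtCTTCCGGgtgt
Psmd12: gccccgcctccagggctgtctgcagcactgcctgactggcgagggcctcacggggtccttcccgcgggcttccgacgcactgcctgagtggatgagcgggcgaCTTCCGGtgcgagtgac
Psmd6: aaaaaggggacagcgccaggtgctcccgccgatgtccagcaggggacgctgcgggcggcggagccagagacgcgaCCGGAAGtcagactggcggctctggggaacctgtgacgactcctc
Psmc6: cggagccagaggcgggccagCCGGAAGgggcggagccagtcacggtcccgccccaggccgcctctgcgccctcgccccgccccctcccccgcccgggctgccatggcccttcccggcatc
The string began 28, 11 and 17 bases before the start in Psmc1, Psmd11 and Psmd12, on the minus strand of each gene, and 45 and 100 bases before it in Psmd6 and Psmc6, on the gene's own strand.

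Psmb5 (chr14:54617996-54618115, minus) and Psmb6 (chr11:70525237-70525356, plus), the catalytic genes that did not pass, held the antioxidant response element, in capitals, 47 and 9 bases before the start.
Psmb5: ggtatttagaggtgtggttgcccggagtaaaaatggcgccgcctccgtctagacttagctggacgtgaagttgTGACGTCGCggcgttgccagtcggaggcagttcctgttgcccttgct
Psmb6: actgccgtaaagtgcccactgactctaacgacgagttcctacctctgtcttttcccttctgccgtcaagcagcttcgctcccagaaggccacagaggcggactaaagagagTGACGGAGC
The 2 risen genes with this element were Psmc6 and Psmd12, both printed above for the ETS string. They held it 227 and 247 bases before the start, outside the 120 bases printed. A string match is a description of these letters and shows no binding. Of the factors that could bind the element, Nfe2l2 stood at 23.8, 20.3 and 23.5 FPKM under the Fzr1-OE label and 19.9 and 23.6 FPKM in Control, and Nfe2l1 at 4.45, 3.50 and 2.96 against 5.01 and 6.48 FPKM. Neither passed in limma (adjusted p = 0.899 and 0.236).

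Genes around the proteasome were taken from 4 lists. Proteasome-associated factors had 0 of 9 passing between the blastocyst groups. The nearest was Uchl5, a cap-bound deubiquitinase, at 109, 105 and 104 FPKM under the Fzr1-OE label and 84.3 and 85.2 FPKM in Control (log2 fold change 0.32, SE 0.08, limma adjusted p = 0.0622). Pomp, the core maturation factor, stood at 389, 412 and 374 against 328 and 338 FPKM (0.23, adjusted p = 0.0900). Regulators had 0 of 9 passing, with Nfe2l1, described above, the nearest, at a log2 fold change below 0 (-0.55). Class I antigen processing had 0 of 6 passing, with Calr the nearest (0.24, limma adjusted p = 0.178). Medians of these 3 lists were 0.20, 0.04 and 0.09 beside the 0.005 of all loci.

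Of 17 genes of ubiquitin supply and shuttling, 1 rose and 1 fell. Ubb, a polyubiquitin gene, stood at 5023, 5489 and 5135 FPKM under the Fzr1-OE label and 7348 and 7003 FPKM in Control, without overlap. It fell by 0.46 on the log2 scale (SE 0.05, limma adjusted p = 0.00103). Ufd1l, a partner of the unfoldase Vcp, stood at 100.4, 106 and 108 against 76.2 and 77.5 FPKM and rose by 0.44 (SE 0.08, adjusted p = 0.0221).

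In 2-cell embryos 0 of 45 measured members passed in any of the 3 comparisons with limma. Of all 8245 loci 0.0121% passed when IVF was set against WT, and 0% in either comparison of sIVF. At an unadjusted p under 0.05 stood 9 members in each, beside 12.4% of all loci with IVF and WT, 7.10% with sIVF and WT and 11.8% with sIVF and IVF. Groups did not overlap for 15 higher and 11 lower members with IVF against WT (22.8% and 19.3% of all loci), 17 and 7 with sIVF against WT (20.6% and 15.3%) and 15 and 9 with sIVF against IVF (21.7% and 21.0%). Members' medians were 0.006, 0.16 and 0.03, and those of all loci 0.09, 0.06 and -0.02. The comparisons share libraries, IVF and sIVF being set against the same WT pair, so their values are given side by side only.

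Psmg4, a core assembly chaperone, stood at 3.47 and 9.65 FPKM for WT, 34.8 and 23.0 for sIVF and 25.4 and 62.8 for IVF. Both the sIVF and the IVF pair lay above WT without overlap. The log2 fold changes were 2.57 for IVF (SE 0.57, limma adjusted p = 0.138) and 2.09 for sIVF (SE 0.57, adjusted p = 0.508). Other chaperones showed other orders. Psmg2 stood at 8.60 and 12.6 FPKM for WT, 5.25 and 0.0849 for sIVF and 0.134 and 4.73 for IVF. Psmd9, a cap chaperone gene, stood at 12 and 10.0 FPKM for IVF, 1.66 and 3.12 for WT and 0 and 2.86 for sIVF.

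Among cap subunits, Psmd2 stood at 1.89 and 3.75 FPKM for WT, 8.54 and 8.16 for sIVF and 9.07 and 11.4 for IVF. WT was lowest without overlap (1.59 for IVF against WT, SE 0.51, limma adjusted p = 0.280). Psmc4, an ATPase gene, was lowest in sIVF, at 24.2 and 23.5 FPKM, beside 50.2 and 44.9 FPKM in WT and 64.2 and 53.0 FPKM in IVF. It gave the smallest p among members for sIVF against IVF, at -1.26 (SE 0.28, limma adjusted p = 0.148). Psmd4 was also lowest in sIVF, at 56.1 and 53.9 FPKM, beside 102 and 91.5 FPKM in WT and 89.6 and 73.2 FPKM in IVF (-0.80 for sIVF against WT, SE 0.24, adjusted p = 0.519).

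In the core, Psma1 stood at 38.5 and 20.1 FPKM for WT, 66.9 and 75.1 for sIVF and 50.4 and 45.7 for IVF, with no overlap between any groups (1.32 for sIVF against WT, SE 0.34, limma adjusted p = 0.507). Psma2 stood at 279 and 284 FPKM for sIVF, 225 and 218 for WT and 171 and 202 for IVF (0.59 for sIVF against IVF, adjusted p = 0.252). Psmb6 stood at 247 and 217 FPKM for IVF, 143 and 99.4 for WT and 135 and 176 for sIVF (0.95 for IVF against WT, SE 0.25, adjusted p = 0.169). IVF was thus highest for Psmb6 and lowest for Psma2. Psmb10, described above, had a log2 fold change of -1.93 for sIVF against IVF (SE 0.43, limma adjusted p = 0.150). Psmc3ip, no proteasome subunit, stood at 241 and 274 FPKM in IVF, 250.02 and 215 FPKM in sIVF and 95.9 and 198 FPKM in WT.

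**Figure D4:**
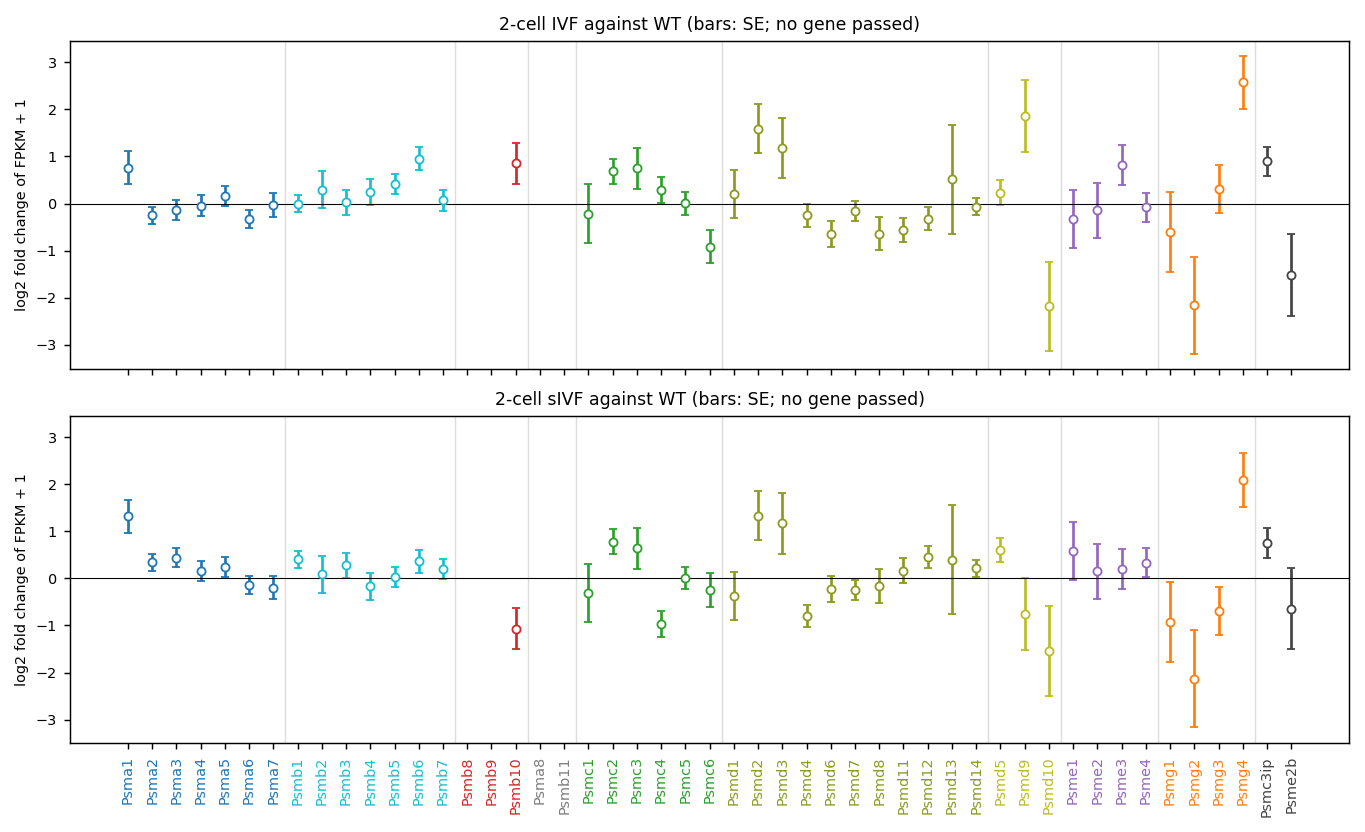
Log2 fold change of FPKM + 1 for each proteasome gene in 2-cell embryos labelled IVF (upper panel) and sIVF (lower panel) against the same WT libraries, with bars of 1 SE. No gene passed in either panel, and low genes such as Psmd13 carry the widest bars, 1.16.

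The interval of these 2-cell differences was wide. For Psmd13, at 10.7 and 0.0507 FPKM in WT, the 95% interval of IVF against WT ran from -2.15 to 3.17 on the log2 scale. For Psmb1, at 366 and 424 FPKM, it ran from -0.41 to 0.41. A missed threshold in these 2-against-2 comparisons leaves such differences undetectable here, not absent.

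Control blastocysts were also set against WT 2-cell embryos, with 36 of 46 measured members higher and 3 lower in blastocysts (45.8% and 19.5% of all 9761 loci). The 2 stages are separate sets of libraries of different depth, so stage and library set cannot be told apart. The median log2 fold change of members was 1.66, beside 0.88 for all loci. Chaperones (median 2.55, 6 of 7 higher) and cap subunits (2.1, 15 of 17 higher) lay further above the median of all loci than core subunits (1.10, 11 of 14 higher). Relative to that median the values were 1.67, 1.21 and 0.22. After rescaling each library to a common sum, which brought the median of all loci to 0.37, they were 1.45, 0.95 and -0.05, and after upper-quartile scaling 1.47, 0.99 and -0.002, so the sign for the core turned with these scalings (it was 0.31 after quantile normalization) and those for cap and chaperones did not.

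Psmd2 (chromosome 16 from 20651725 to 20663487, mm9), the largest rise among the members, stood at 149 and 129 FPKM in Control blastocysts and at 1.89 and 3.75 FPKM in WT 2-cell embryos (log2 fold change 5.24, SE 0.26, limma adjusted p = 6.6e-07). Psmg4 stood at 128 and 152 against 3.47 and 9.65 FPKM (4.35, SE 0.47). Psmd13 stood at 54.4 and 67.4 against 10.7 and 0.0507 FPKM (4.13, SE 1.01, adjusted p = 0.00587), and this call was lost in a fit of the 2 groups alone (adjusted p = 0.0603). Psma1 stood at 416 and 405 against 38.5 and 20.1 FPKM (3.83, SE 0.25). All 6 ATPase genes rose, by 1.63 for Psmc2 to 3.57 for Psmc3.

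Psme4 (chromosome 11 from 30671775 to 30780361, mm9) was among the 3 that fell. It stood at 35.0 and 27.2 FPKM in WT 2-cell embryos and at 4.5 and 6.36 FPKM in Control blastocysts and dropped by 2.32 on the log2 scale (SE 0.25, limma adjusted p = 5.14e-05). The other activators also passed, Psme2 from 10.3 and 22.1 FPKM to 89.3 and 89.7 FPKM, Psme1 from 13.9 and 19.7 FPKM to 44.4 and 46.3 FPKM and Psme3 from 9.19 and 11.8 FPKM to 21.1 and 23.0 FPKM. Psme4 thus made up 33.6% to 51.2% of activator FPKM in the 6 libraries of 2-cell embryos and 2.83% to 3.89% in the 5 of blastocysts. Psmb10 fell from 25.6 and 38.4 FPKM to 6.58 and 6.17 FPKM (-2.13, SE 0.37), and Psmc3ip from 95.9 and 198 FPKM to 51.1 and 46.9 FPKM (-1.47, SE 0.29). These 3 falls passed under each of the 3 scalings. Of the activator rises only Psme2 did. Psme1 (adjusted p = 0.0438) and Psme3 (adjusted p = 0.0183) were lost under all 3 scalings in limma. Psme1 was also lost with no filter, with no intensity trend, at a pseudocount of 0.1 and on leaving out any library other than an IVF one, and Psme3 without WT replicate 1 or either Control replicate.

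Some subunits high in 2-cell embryos did not pass between the stages, while others as high did. Among the latter, Psmb2 went from a mean of 275 FPKM in WT to 1062 FPKM in Control, and Psma7 from 238 to 1820 FPKM. Psmg3 and Psme2b, at means of 20.6 and 5.70 FPKM in WT, did not pass either. Psmb1 stood at 366 and 424 FPKM in WT 2-cell embryos and 392.02 and 394 FPKM in Control blastocysts (log2 fold change -0.00, 95% interval -0.29 to 0.29). Psma6 (-0.18), Psmb7 (-0.20), Psmd7 (-0.08) and Psmd14 (0.18) were also near 0 and, with Psmb1, fell under quantile, upper-quartile and common-sum scaling. Those scalings called 25, 24 and 26 members higher and 8 lower in each.

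**Figure D5:**
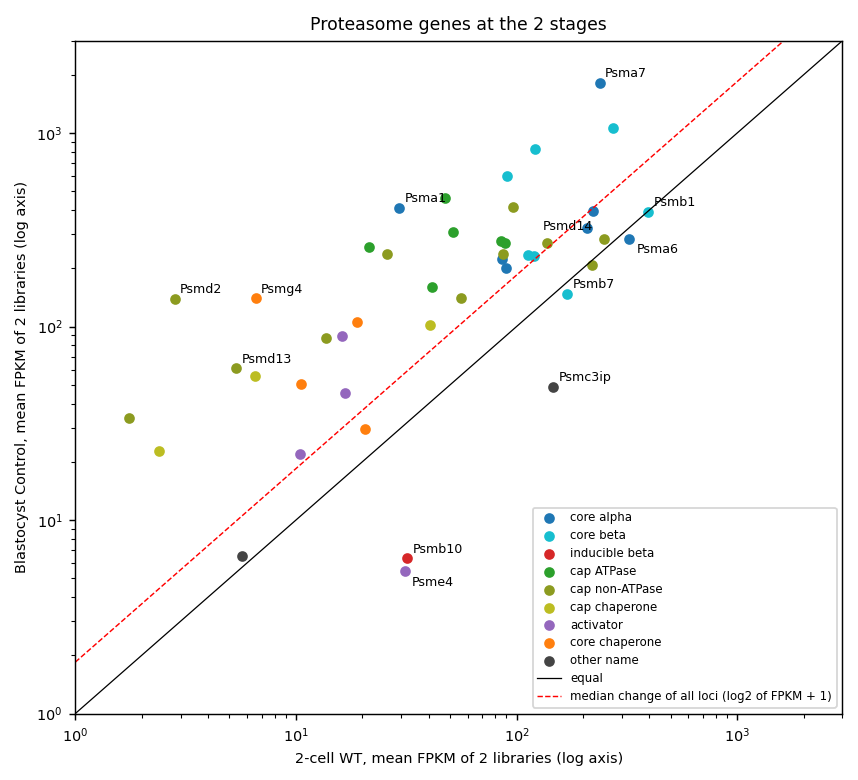
Mean FPKM of proteasome genes in the 2 WT 2-cell libraries (x axis, log) and the 2 Control blastocyst libraries (y axis, log), coloured by role. A line of equality and a dashed line at the median change of all loci, 0.88, are drawn. Psma8, Psmb8, Psmb9 and Psmb11, at 0 in both WT libraries, are not shown. Psmd2, Psmg4 and Psmd13 lie far above both lines, and Psme4, Psmb10 and Psmc3ip lie below equality.

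In 2-cell embryos 0 genes of the 4 related lists passed in any of the 3 comparisons with limma. Ubb had an adjusted p of 0.0952 in limma for IVF against WT. Related genes at the 2 stages were counted by the same rule, by which 45.8% of all loci were higher and 19.5% lower in blastocysts, and these short lists are read against that. Proteasome-associated factors rose in 5 of 9, among them the ubiquitin receptor Adrm1 from 32.1 and 50.4 FPKM to 312 and 284 FPKM. Pomp (241 and 306 against 328 and 338 FPKM) and Shfm1, a small lid subunit outside the naming rule (334 and 412 against 364 and 377 FPKM), did not pass. Regulators rose in 4 of 10 and fell in 1, the latter Mafk, which is no more than those shares. Ubiquitin supply and shuttling rose in 12 of 17 and fell in 2, Zfand2a and Zfand5, with Ubb moving from 911 and 801 FPKM to 7348 and 7003 FPKM. Class I antigen processing rose in 3 of 5 and fell in 1, Canx.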

How the data were processed

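RNA of 11 libraries was used. Per the labels' protocols, lysates were reverse transcribed directly, cDNA went through 18 to 20 cycles of amplification, and reads were paired. Per the file headers, the values the authors deposited are FPKM with bounds for each gene. The build mm9, Cufflinks 2.2.1 and HISAT2 2.1.0 are listed in the submitters' processing notes, which give no roles. In the fat tables the authors deposited a Fisher p-value per gene ontology term and an expected number of genes, a score here, per the file headers. Depth was estimated by reading each bound as 2 Poisson standard deviations from the value. That reading did not hold for every gene, so fragment numbers are rough. Psma7 implied 1201 fragments at 279 FPKM in WT replicate 1. In Control replicate 1 it implied only 2135 at 1882 FPKM.

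Tests used limma 3.58.1 under R 4.3.3 with an intensity trend, on log2(FPKM + 1), for loci averaging 1 FPKM or more. One fit held the 6 early libraries, another the 5 of blastocysts, and the stage comparison all 11. Adjusted p-values are Benjamini-Hochberg over all loci. Fold changes are on the log2(FPKM + 1) scale, which understates changes of low genes. 1 locus with a failed status, not a member, was left out. Members and lists were chosen with earlier results of these data known.

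Values per library are given for members that passed within a stage (12 of smallest p) and the 4 of smallest p in 2-cell comparisons. They are also given for the 4 largest rises and falls that passed between stages and for members with a special role. Psmd14 and Psmb1 were added after their values were seen. Pomp, Shfm1 and Nfe2l2 of the related lists neither passed nor had the smallest p of their list where they are given. Alternatives were a pseudocount of 0.1, filters of 0 and 5 FPKM, 3 scalings, no trend, robust estimation, a replicate block, fits of the compared groups only, a 1.5-fold threshold and leaving out each replicate. Steps were tested on simulated data. Promoter strings were searched with Python 3.11.15. The H3K9me3 libraries were not analysed here. Some genes of the related lists are not reported here by name.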

Additional observations from a re-analysis of the deposited data

How the results depend on the processing

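With no filter, no intensity trend, the replicate block or a 1.5-fold threshold, 0 members passed between blastocyst groups, and the causes were not tested; leaving out 1 replicate gave 0 to 11. The members' median there was 0.19 after quantile normalization, 0.23 at a common sum and 0.22 with the replicate block, and 0.18 to 0.25 without a replicate. Same-numbered libraries did not deviate together (correlations of -0.003, 0.07 and -0.001 in 2-cell pairs, -0.04 and 0.03 in blastocyst pairs), so the block rests on a shared number only. Psmb6 in blastocysts turned to 0.0395 without Control replicate 1 and was -0.142 without Control replicate 2. In 2-cell embryos 0 members passed under any alternative run. Medians for sIVF against WT were 0.0568 after quantile normalization and 0.0496 at a common sum, and for sIVF against IVF -0.0490 at a common sum. Without a replicate they ran from -0.13 to 0.20 for IVF against WT, 0.0802 to 0.17 for sIVF against WT and -0.00414 to 0.16 for sIVF against IVF. Between stages 34 to 39 members passed without a replicate, with medians of 1.64 to 1.82. That median was 1.47 with no filter, 0.87 after quantile normalization, 0.72 after upper-quartile scaling, 0.88 at a common sum and 1.81 without Psmc3ip and Psme2b, a choice made after seeing the data. Of 147 values of named genes between stages, 146 kept direction and side of the threshold; Psmd13 was the exception. In blastocysts 186 of 280 did and 92 lost the call. These values include Psmb3, Psmb5, Psmb6, Psmb9, Psmb10, Psme1 and Psme2, which had no call to lose. The share kept was therefore lower among the 13 members that had passed. Each of those kept its call in 5 (Psmd8) to 9 (Psmb7) of 14 alternatives.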

Other observations

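The authors' deposited table of gene ontology terms for fat RNA named 449 gene symbols over 1605 terms, and their deposited table for fat bisulfite sequencing named 119 symbols over 632 terms. Neither named any of the 49 proteasome genes, and 0 terms had proteasome in their name. Among the related lists Nfe2l3, a relative of the proteasome regulator Nfe2l1, was the 1 gene named, in the fat RNA table.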
